A study of Homo sapiens with 15 samples.

Results

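The Notch genes described here are 9 of the 12995 genes in each of 2 deposited expression tables: the receptors NOTCH1, NOTCH2 and NOTCH3, the ligands JAG1, JAG2 and DLL1, the target genes HES1 and HEY1, and the DNA-binding partner RBPJ. They were taken by gene symbol, and all 9 were listed in both tables. RNA came from 15 libraries of human cell lines in 5 groups of 3. They were wild-type OKF6, an immortalised oral keratinocyte line, and the head and neck squamous carcinoma lines SCC15 and SCC25. Each carcinoma line came without (+YBX1) and with (–YBX1) knockdown of the RNA- and DNA-binding protein YBX1. The labels name the carcinoma cells YBX1 knockout, but in the –YBX1 groups YBX1 RNA was reduced, not absent. Below, loss of YBX1 and without YBX1 mean this reduction. SCC15 and SCC25 carried lentiviral Cas9 and a doxycycline-inducible guide to YBX1 in all 4 of their groups and were sorted as pools positive for both reporters. The –YBX1 cells received doxycycline at 1 µg/ml for 3 days, whereas the +YBX1 cells did not. No group received doxycycline without a guide to YBX1, so doxycycline and loss of YBX1 cannot be told apart. OKF6, labelled wild type, grew like SCC25 in serum-free keratinocyte medium, whereas SCC15 grew in DMEM with serum, so line, medium and (against OKF6) construct cannot be told apart. Nothing in the labels states that replicates were separate cultures, so the p-values measure the spread between these libraries, which may be technical.

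Notch signalling passes between touching cells. A ligand of the Jagged or Delta family on one cell binds a Notch receptor on its neighbour, proteases then release the receptor's intracellular domain, and this fragment enters the nucleus and joins RBPJ to switch on genes such as the HES and HEY repressors. In stratified epithelium Notch is known as a driver of the exit from the basal layer, with Jagged ligands, NOTCH1, NOTCH2 and NOTCH3 all in use, and loss-of-function mutations of NOTCH1 are frequent in head and neck squamous carcinoma.

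In SCC15 the ligand JAG1 was nearly absent, 82.6-fold below OKF6, and the target HEY1 was abundant, 137-fold above OKF6 over the pooled reads of 3 libraries a group, with 14 of the 16 OKF6 reads in one library. NOTCH1, DLL1 and HES1 were also lower in SCC15 than in both other lines, by log2 changes between -2.92 and -1.11. SCC25 had more JAG2 than either other line and a level of JAG1 and HES1 that overlapped OKF6. On loss of YBX1 none of the 9 genes passed the test in either line. Nor did any other of the 12995 genes, YBX1 itself included (adjusted p of 0.29 in SCC25 and 0.326 in SCC15 by limma).

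The 15 libraries held between 4075290 and 6118501 reads in the genes listed. Values are log2 CPM, the reads of a gene scaled by 1 factor per library, so sums of CPM are not exact shares of a library's reads. Differences between groups are log2 changes from limma with their standard error (SE). Their p-values are adjusted over all genes by the Benjamini-Hochberg method and called at 0.05. A library with 0 reads of a gene has a value near -3, so differences of genes with a few reads depend on the 0.5 reads added to every count. As a check of the knockdown, YBX1 was lower in –YBX1 than in +YBX1 cells in all 3 pairs of each line, with a log2 change of -2.01 (SE 0.35) in SCC25 and of -2.15 (SE 0.35) in SCC15. In limma's test the adjusted p was 0.29 and 0.326 in the single lines and 0.0103 with both lines averaged. The mean level of YBX1 was still 4.54 log2 CPM in SCC25 –YBX1 and 3.40 in SCC15 –YBX1, beside 6.55 and 5.55 in the +YBX1 groups. The 3′ tags show the RNA level, not the cut site. The stratified epithelial markers fixed for this comparison summed to between 36191 and 45472 CPM in OKF6 and between 19384 and 31025 CPM in SCC25 +YBX1, but to between 124 and 166 CPM in SCC15 +YBX1, with all 20 lower in SCC15 than in either other line. The mesenchymal list, of which 14 of 19 genes were listed, summed to between 502 and 572 CPM in SCC15 +YBX1. This was below both OKF6 (997 to 2010 CPM) and SCC25 +YBX1 (2600 to 3351 CPM), while 7 of the 14 genes were higher and 3 lower in SCC15 than in OKF6. Over all genes 26.9% were higher and 23.4% lower in SCC15 than in OKF6, and 23.6% were lower than in SCC25. One endothelial gene of 7 was listed, and it had 0 reads in SCC15 +YBX1 and at most 4.57 CPM in SCC25 +YBX1, while the defining markers PECAM1 and CDH5 were not listed. Of the leukocyte genes 3 of 7 were listed, and they summed to at most 25.96 CPM in OKF6, 44.5 CPM in SCC25 +YBX1 and 6.19 CPM in SCC15 +YBX1. The part of cell state in the Notch differences was not tested. The first library of OKF6 stood apart, with a correlation of 0.86 with the mean of its 2 partners over genes above the median level. The second OKF6 library was next lowest at 0.905 and had the fewest reads, 4075290. The second –YBX1 library of SCC25, at 0.943, also stood apart, as its 10 most abundant genes took 16.2% of the reads. So did the first –YBX1 library of SCC15, at 0.946 beside 0.98 for each of its partners.

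Promoter sequence of 7 of the 9 genes was read from RefSeq (GRCh38.p14) and searched on both strands for 3 short motifs in the 250 bases before the start site: TGGGAA, the core bound by RBPJ, ATTGG, the Y-box core for which YBX1 is named, and CACNAG, an N-box bound by HES proteins. The HES1 promoter (chr3:194135898-194136147, plus strand) and the JAG1 promoter (chr20:10674000-10674249, minus strand) are shown because one belongs to the classical Notch target and the other to the ligand with the widest difference. Capitals mark TGGGAA and ATTGG on either strand.
HES1: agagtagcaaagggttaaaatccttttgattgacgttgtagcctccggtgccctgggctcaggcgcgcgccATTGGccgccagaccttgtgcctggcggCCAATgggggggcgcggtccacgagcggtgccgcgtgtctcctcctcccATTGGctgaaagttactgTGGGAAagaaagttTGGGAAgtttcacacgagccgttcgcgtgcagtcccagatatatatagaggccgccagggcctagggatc
JAG1: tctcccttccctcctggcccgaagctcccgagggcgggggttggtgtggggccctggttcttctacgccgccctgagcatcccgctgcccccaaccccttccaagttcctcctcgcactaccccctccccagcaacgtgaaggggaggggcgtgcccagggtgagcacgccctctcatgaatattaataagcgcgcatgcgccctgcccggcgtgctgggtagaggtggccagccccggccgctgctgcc
HES1 held 2 matches to TGGGAA, at 84 and 70 bases before the start, and 3 matches to ATTGG, none of them overlapping. It also held 3 matches to CACNAG, which are left in lower case. JAG1, NOTCH1, NOTCH2 and JAG2 held none of the 3 motifs, and NOTCH3 held 1 match to CACNAG. Of the 5 RBPJ start sites, 1 had 2 matches to TGGGAA and 1 to ATTGG, another had 1 match to CACNAG, and the other 3 had none. Among all 35116 promoters of the same length, 20.8% held TGGGAA, 32% held ATTGG and 32% held CACNAG. A match describes letters, not binding.

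**Figure D1:**
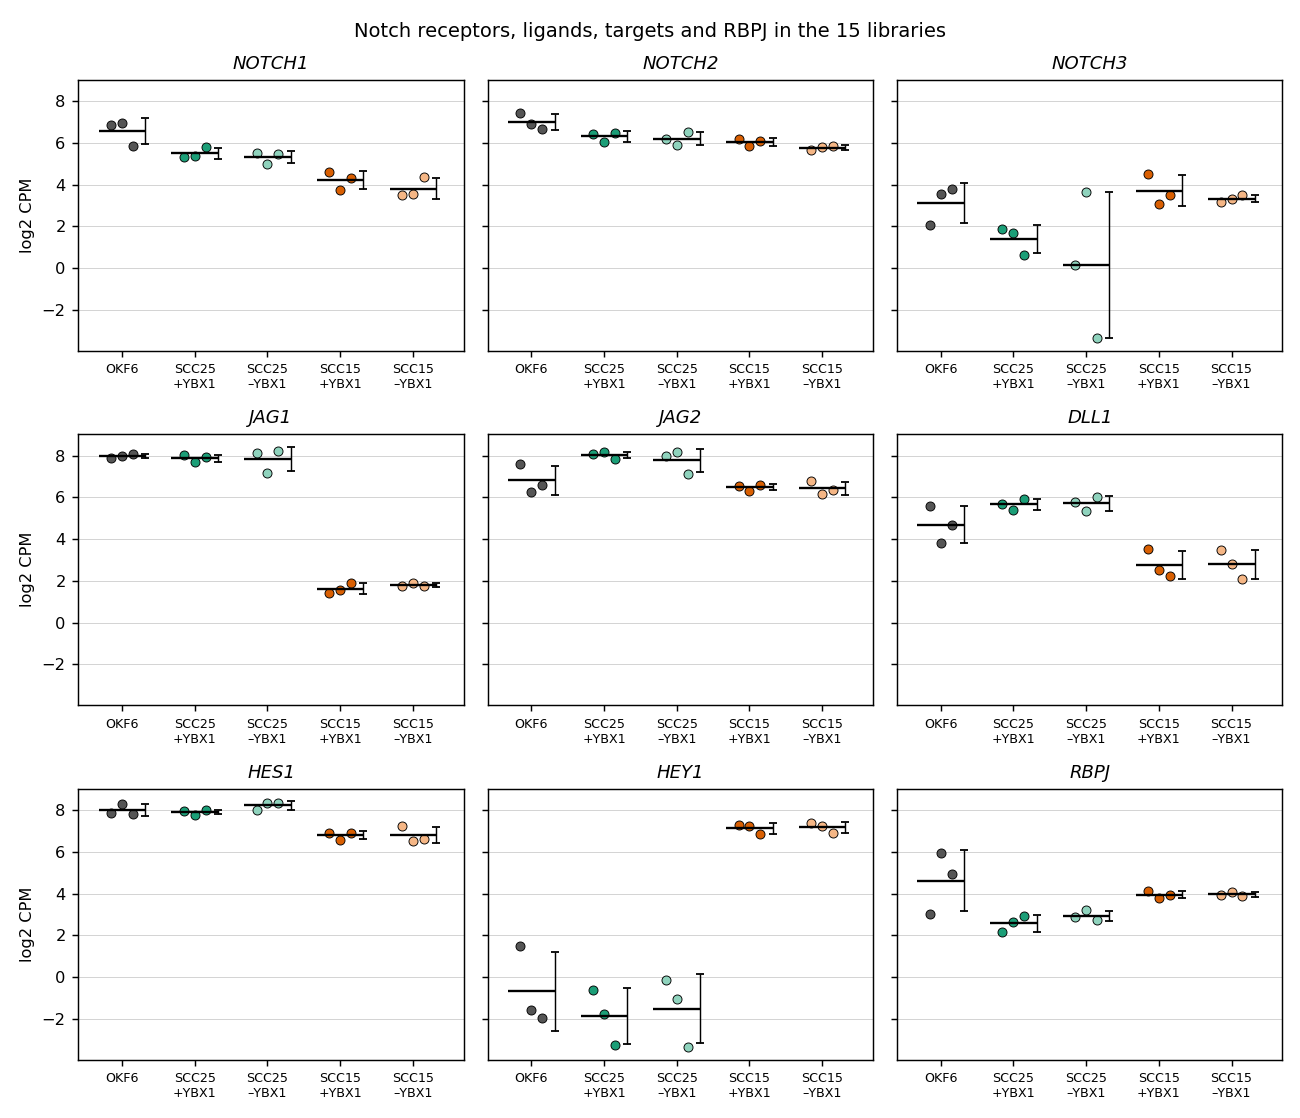
Level of each of the 9 Notch genes in log2 CPM (y axis) in the 5 groups (x axis). Each point is a library, the line is the mean and the bar at its right is ±1 SD of 3 libraries. JAG1 lies between 7.18 and 8.23 in the 9 libraries of OKF6 and SCC25 and between 1.40 and 1.92 in the 6 of SCC15, while HEY1 shows the opposite split.

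Among the ligands, which present the signal, JAG1 separated the lines most widely. JAG1 (hg38 chr20:10637684-10673999, minus strand) encodes a Jagged ligand of stratified epithelium. It was at 7.91, 8.004 and 8.07 log2 CPM in the OKF6 libraries, at 8.02, 7.70 and 7.96 in SCC25 +YBX1 and at 1.40, 1.56 and 1.92 in SCC15 +YBX1. In reads, these were 1253, 1138 and 1591 in OKF6 against 14, 17 and 24 in SCC15 +YBX1. The SCC15 libraries were far below all others, while OKF6 and SCC25 overlapped. JAG1 was lower in SCC15 than in OKF6 by a log2 change of -6.37 (SE 0.20, adjusted p = 1.66e-08), an 82.6-fold difference, and lower than in SCC25 by -6.27 (SE 0.20, adjusted p = 1.67e-08). Between SCC25 and OKF6 the change was -0.10, with a 95% interval of -0.54 to 0.34.

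JAG2 (chr14:105140982-105168824, minus strand), the second Jagged ligand, was highest in SCC25. Its levels were 7.62, 6.28 and 6.60 log2 CPM in OKF6, 8.08, 8.17 and 7.86 in SCC25 +YBX1 and 6.56, 6.32 and 6.58 in SCC15 +YBX1. All SCC25 libraries were above all of OKF6 and SCC15, and OKF6 and SCC15 overlapped. JAG2 was higher in SCC25 than in OKF6 by 1.203 (SE 0.30, adjusted p = 0.0116) and lower in SCC15 than in SCC25 by -1.55 (SE 0.30, adjusted p = 0.00165). SCC15 minus OKF6 was -0.34 (adjusted p = 0.359, 95% interval -1.003 to 0.31), and without the first OKF6 library it was 0.05.

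DLL1 (chr6:170282206-170306565, minus strand), a Delta ligand, was at 5.57, 3.79 and 4.68 log2 CPM in OKF6, at 5.67, 5.41 and 5.92 in SCC25 +YBX1 and at 3.51, 2.50 and 2.23 in SCC15 +YBX1. The SCC15 libraries were again the lowest and did not overlap the others. DLL1 was lower in SCC15 than in SCC25 by a log2 change of -2.92 (SE 0.46, adjusted p = 0.000435), and lower than in OKF6 by -1.94 (SE 0.46, adjusted p = 0.00493). SCC25 minus OKF6 was 0.98 and was not called (adjusted p = 0.132), but without the first OKF6 library it was 1.43 and was called (adjusted p = 0.0194).

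The make-up of the RNA of these 3 ligands differed between the lines. Since a 3′ tag is read once per transcript whatever its length, the reads of the 3 ligands were compared within each library. JAG1 made up 49.6%, 73.8% and 68.7% of the ligand reads in OKF6, 44.7%, 38.6% and 45.9% in SCC25 +YBX1 and 2.36%, 3.24% and 3.56% in SCC15 +YBX1. JAG2 took 89.9% ± 2.44 (SD, n = 3) in SCC15 +YBX1 and 47.7% ± 5.36 in SCC25 +YBX1. The level of the 3 ligands together was 88.5 to 108.2 CPM in SCC15 +YBX1, 538 to 580.2 CPM in SCC25 +YBX1 and 348 to 484 CPM in OKF6. Among these 3 ligands JAG2 was thus the main RNA in SCC15, while its mean level there, 6.49 log2 CPM, stood beside 6.83 in OKF6 and 8.04 in SCC25 +YBX1. The shares depend on the genes taken. DLL3, a Delta family member outside the 3, had 469, 377 and 385 reads in SCC15 +YBX1, beside 518, 475 and 620 of JAG2.

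**Figure D2:**
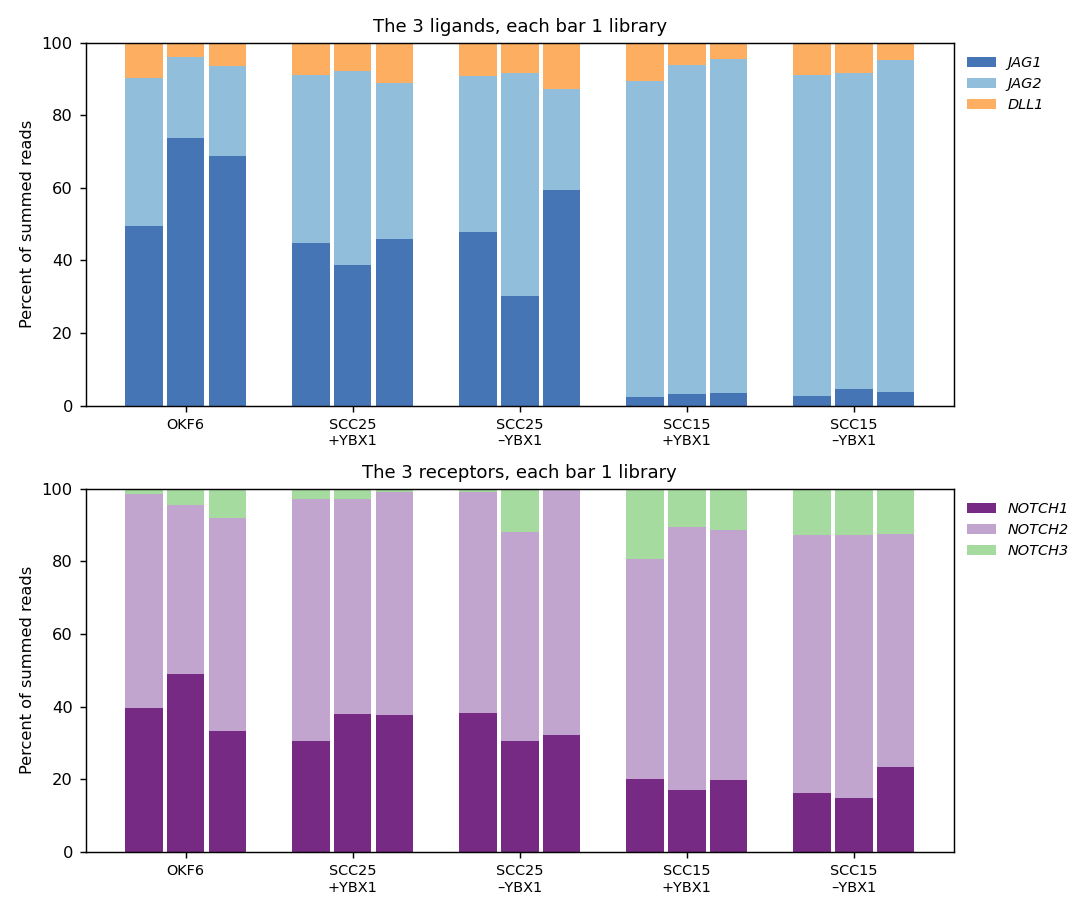
Make-up of the ligand reads (upper panel) and receptor reads (lower panel) in percent of the summed reads of the 3 genes (y axis), with 1 bar per library in the order of replicate number and the groups on the x axis. JAG1 makes up 38.6% or more in OKF6 and SCC25 +YBX1 and 3.56% or less in SCC15 +YBX1, and NOTCH1 has its smallest shares in the SCC15 bars.

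Among the receptors NOTCH1 was graded over the lines. NOTCH1 (chr9:136494433-136546048, minus strand) is the main receptor of basal keratinocytes and a tumour suppressor in squamous epithelium. It was at 6.87, 6.98 and 5.87 log2 CPM in OKF6, at 5.31, 5.39 and 5.80 in SCC25 +YBX1 and at 4.59, 3.76 and 4.32 in SCC15 +YBX1. The 3 groups did not overlap, but the lowest OKF6 library lay just above the highest of SCC25. The log2 change of SCC15 against OKF6 was -2.35 (SE 0.33, adjusted p = 0.000142), that of SCC15 against SCC25 -1.27 (SE 0.33, adjusted p = 0.0094) and that of SCC25 against OKF6 -1.07 (SE 0.33, adjusted p = 0.0311). The last call was lost in 6 of 17 alternative settings, one of them a threshold of 0.01, and these included leaving out the first or second library of OKF6 or of SCC25 (changes of -1.02 to -0.87, adjusted p = 0.0567 to 0.104).

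NOTCH2 (chr1:119911553-120100779, minus strand) varied least of the 3 receptors. It was at 7.44, 6.90 and 6.69 log2 CPM in OKF6, at 6.43, 6.03 and 6.50 in SCC25 +YBX1 and at 6.18, 5.85 and 6.11 in SCC15 +YBX1. OKF6 was above both carcinoma lines, which overlapped. NOTCH2 was lower in SCC15 than in OKF6 by -0.97 (SE 0.23, adjusted p = 0.00514) and lower in SCC25 than in OKF6 by -0.69 (SE 0.23, adjusted p = 0.0443). The latter call was lost in 10 of the 17 alternative settings, including without the first or second OKF6 library or any one SCC25 library (changes of -0.78 to -0.48, adjusted p = 0.0552 to 0.17). SCC15 minus SCC25 was -0.27, with a 95% interval of -0.79 to 0.24.

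NOTCH3 (chr19:15159038-15200995, minus strand), a receptor of suprabasal cells and a Notch target itself, was scarce throughout. It had 21, 52 and 83 reads in OKF6, 19, 16 and 7 in SCC25 +YBX1 and 127, 50 and 73 in SCC15 +YBX1. SCC25 lay below both other lines, and OKF6 and SCC15 overlapped. NOTCH3 was higher in SCC15 than in SCC25 by 2.30 (SE 0.59, adjusted p = 0.00935), a call that was lost with all 15 libraries in one fit (adjusted p = 0.113). SCC25 minus OKF6 was -1.74 (SE 0.59, adjusted p = 0.0481; with the replicate number as a block 0.0756). This call was lost in 11 of the 17 alternative settings, including without the second or the third OKF6 library or any one SCC25 library (changes of -1.97 to -1.35, adjusted p = 0.0696 to 0.165). SCC15 minus OKF6 was 0.57 (95% interval -0.74 to 1.88).

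In make-up, NOTCH2 gave the largest share of receptor reads in SCC15 +YBX1, with 67.3% ± 6.04, and in SCC25 +YBX1, with 62.4% ± 3.82. NOTCH1 took 40.6% ± 7.95 of them in OKF6, 35.4% ± 4.18 in SCC25 +YBX1 and 18.96% ± 1.72 in SCC15 +YBX1. NOTCH3 took 13.7% ± 4.85 in SCC15 +YBX1 and 2.20% ± 1.05 in SCC25 +YBX1 (SD, n = 3 each).

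RBPJ (chr4:26163455-26435131, plus strand), the DNA-binding partner of every Notch receptor, which represses targets when no receptor fragment is present, was uneven in OKF6. Its levels were 3.03, 5.94 and 4.92 log2 CPM in OKF6, 2.14, 2.63 and 2.92 in SCC25 +YBX1 and 4.12, 3.78 and 3.92 in SCC15 +YBX1. SCC25 was the lowest line, and the first OKF6 library lay below every SCC15 library while the other two lay above. RBPJ was lower in SCC25 than in OKF6 by -2.06 (SE 0.61, adjusted p = 0.026). This call was lost in 8 of the 17 alternative settings, including without the second or the third OKF6 library or any one SCC25 library (changes of -2.24 to -1.41, adjusted p = 0.0502 to 0.0901). SCC15 minus OKF6 was -0.69 and was not called (adjusted p = 0.37), but without the first OKF6 library it was -1.49 and was called (adjusted p = 0.00644). SCC15 minus SCC25 was 1.37 (SE 0.61, adjusted p = 0.0905), and it was called when only the 2 groups entered the fit (adjusted p = 0.0026).

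The 2 target genes differed in opposite directions in SCC15. HES1 (chr3:194136148-194138732, plus strand), a repressor switched on directly by Notch and by other pathways, was at 7.89, 8.32 and 7.83 log2 CPM in OKF6, at 7.97, 7.79 and 7.99 in SCC25 +YBX1 and at 6.90, 6.58 and 6.93 in SCC15 +YBX1. All SCC15 libraries were below all others. HES1 was lower in SCC15 than in OKF6 by -1.21 (SE 0.19, adjusted p = 0.000333) and lower than in SCC25 by -1.11 (SE 0.19, adjusted p = 0.000773). SCC25 minus OKF6 was -0.10, with a 95% interval of -0.52 to 0.32.

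HEY1, a repressor of the related HEY family, had 14, 1 and 1 reads in OKF6 and 3, 1 and 0 in SCC25 +YBX1, against 868, 901 and 743 in SCC15 +YBX1. It was thus close to undetected outside SCC15. On the log2 scale the SCC15 libraries were at 7.31, 7.25 and 6.84, with a mean of 7.13 beside 6.80 for HES1 in the same libraries. Over the pooled reads HEY1 was 137-fold higher in SCC15 than in OKF6 (95% counting interval 83.9 to 239) and 533-fold higher than in SCC25 (208 to 1958). Of the 16 OKF6 reads 14 came from the first library, which stood apart, and without it the ratio to OKF6 was 727-fold (201 to 6003) against 2 reads. These intervals cover counting error only. The fitted log2 changes were 7.82 (SE 0.92, adjusted p = 3.86e-05) and 9.01 (SE 0.92, adjusted p = 1.79e-05), and their size depends on the 0.5 reads added. Between SCC25 and OKF6 the fitted change of -1.19 was not called (adjusted p = 0.36).

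**Figure D3:**
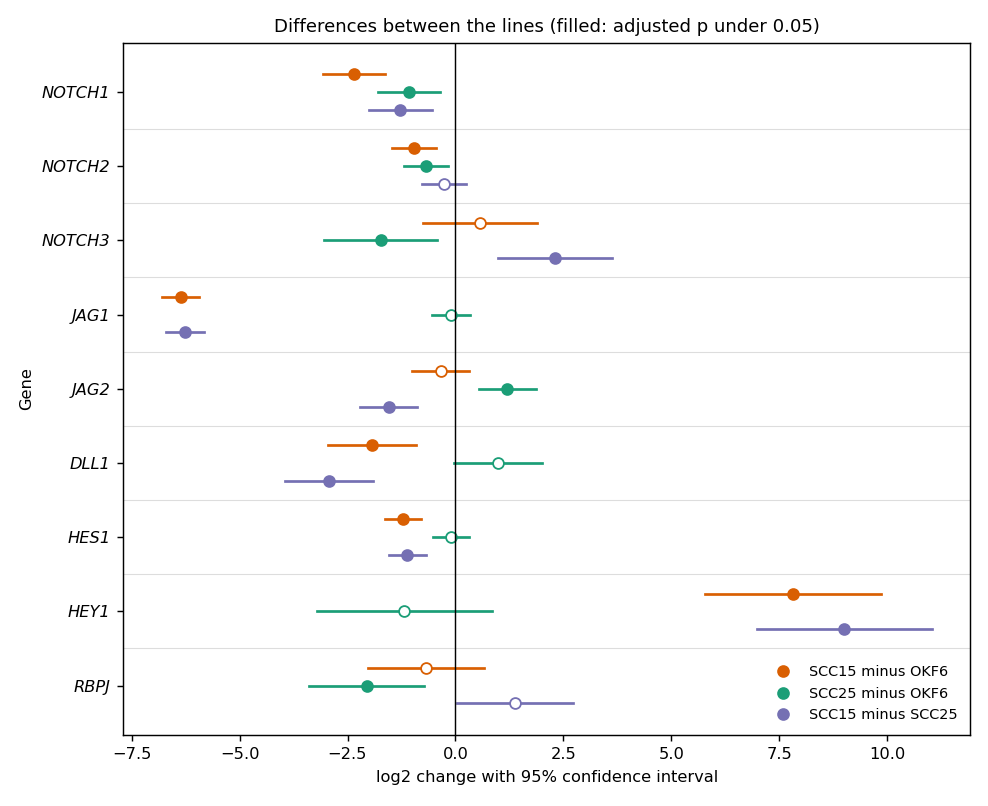
Log2 change of each Notch gene (y axis) between the lines, with the 95% confidence interval from limma (x axis). Filled points had an adjusted p under 0.05. JAG1 and HEY1 are the 2 genes whose SCC15 differences exceed 6 in size, at -6.37 and 7.82 against OKF6.

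Counted together, SCC15 against OKF6 had 1 of the 9 genes higher and 5 lower, where 26.9% of all genes were higher and 23.4% lower. SCC15 against SCC25 had 2 higher and 5 lower, where 20% of all genes were higher and 23.6% lower. SCC25 against OKF6 had 1 higher and 4 lower, where 18.9% of all genes were higher and 11.3% lower. The median log2 change of the 9 genes was -0.97, -1.11 and -0.69 in these 3 comparisons, beside 0.10, -0.01 and 0.13 over all genes. The comparisons share libraries, so their counts are not independent. The SCC25 calls were the least stable: 2 of the 9 genes passed the test when only the 2 groups entered the fit, 1 without the second OKF6 library, 4 without the first, 1 without either the first or the second SCC25 library, 2 without the third SCC25 library and 3 without the third OKF6 library.

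Over the rest of the pathway, 83 of the 91 listed genes were in the tables. SCC15 against OKF6 had 21 higher and 28 lower, SCC15 against SCC25 14 higher and 27 lower, and SCC25 against OKF6 16 higher and 11 lower. For SCC25 against OKF6 this rose to 26 higher and 16 lower without the first OKF6 library, and over all genes the calls rose with it, from 2450 to 3278 higher and from 1473 to 2053 lower. The median log2 change over the 83 genes was -0.27, -0.18 and 0.09 in these comparisons, where the median of all genes was 0.10, -0.01 and 0.13. The genes of receptor turnover, which tag or sort Notch for degradation, had 8 of 13 lower in SCC15 against OKF6 and 8 of 13 against SCC25. This was 61.5% in each comparison, beside 23.4% and 23.6% of all genes, and 6 were lower in both. Against OKF6 2 were higher (15.4%, beside 26.9%), and against SCC25 0 were (beside 20%). The median change of the 13 turnover genes was -1.21 against OKF6 and -1.32 against SCC25. Of the 18 nuclear corepressors listed, 7 were higher and 5 lower in SCC15 than in OKF6 (38.9% and 27.8%). Of the 9 proteases that cut the receptor, 2 were higher and 1 lower in that comparison (22.2% and 11.1%), with a median change of 0.05. Of the 11 glycosyltransferases that modify the receptor's extracellular part, 2 were higher and 3 lower there (18.2% and 27.3%). The shares of all genes in that comparison were 26.9% and 23.4%.

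The pathway genes with the widest differences were mostly other ligands and other targets. DNER, a membrane protein described as a Notch ligand, had 926, 352 and 439 reads in OKF6 and 346, 221 and 346 in SCC25 +YBX1, but 1, 2 and 0 in SCC15 +YBX1. Its pooled reads were 658-fold lower in SCC15 than in OKF6 (95% counting interval 225 to 3194). Like JAG1 and DLL1, DNER was lowest in SCC15. The 7 other receptors and ligands listed did not all differ that way. Against OKF6 2 were higher and 3 lower in SCC15 (28.6% and 42.9%, beside 26.9% and 23.4% of all genes). Against SCC25 1 was higher and 5 lower (14.3% and 71.4%, beside 20% and 23.6%). DLL3, a Delta family member chosen after its values were seen, was the one higher in both comparisons, with 56, 38 and 14 reads in OKF6, 115, 67 and 109 in SCC25 +YBX1 and 469, 377 and 385 in SCC15 +YBX1. Its log2 change was 3.49 (SE 0.50, adjusted p = 0.000172) against OKF6 and 1.87 (adjusted p = 0.0114) against SCC25. MFAP5, a microfibril protein that can bind Jagged and Notch, had 806, 422 and 809 reads in OKF6, 11, 15 and 35 in SCC25 +YBX1 and 1, 0 and 1 in SCC15 +YBX1. It was 1171-fold lower in SCC15 than in OKF6 (counting interval 324 to 9675), and its change in SCC25 against OKF6 was -5.11 (SE 0.61, adjusted p = 0.000162). CCN3, a matricellular protein reported to bind NOTCH1, was found in SCC25 +YBX1 with 7, 19 and 5 reads and had 0 reads in each OKF6 library. It was at least 8.11-fold higher in SCC25 (lower limit of the 95% counting interval).

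The list fixed as other direct targets, with 14 genes listed, was split. In SCC15 5 were higher and 6 lower than in OKF6 (35.7% and 42.9%, beside 26.9% and 23.4% of all genes). Against SCC25 5 were higher and 4 lower (35.7% and 28.6%, beside 20% and 23.6%). Whether each of these 14 genes responds to Notch in these lines was not tested. The rule for named genes took the HES and HEY genes HEY2, HEYL and HES2 among them. HEY2 had 0 reads in all 3 OKF6 libraries, 7, 3 and 3 in SCC25 +YBX1 and 39, 62 and 65 in SCC15 +YBX1. HEYL had 0, 0 and 1 reads in OKF6, 9, 1 and 0 in SCC25 +YBX1 and 77, 53 and 82 in SCC15 +YBX1. All 3 HEY genes were thus highest in SCC15. HEY2 was at least 48.1-fold higher in SCC15 than in OKF6 (against 3 reads over the group) and 10.8-fold higher than in SCC25 (counting interval 6.17 to 20.8). HEYL was 184-fold higher than in OKF6, with a wide counting interval of 32.7 to 7318, and 17.99-fold higher than in SCC25 (9.59 to 38.1). HES2 went the other way, with 258, 564 and 356 reads in OKF6, 88, 58 and 42 in SCC25 +YBX1 and 0, 1 and 2 in SCC15 +YBX1. HES2 was 451-fold lower in SCC15 than in OKF6 (counting interval 154 to 2192), and its log2 change in SCC25 against OKF6 was -2.60 (SE 0.60, adjusted p = 0.00813). The HES genes did not share one direction. HES4 and HES6, both chosen after their values were seen, were higher in SCC15. HES4 had 38, 92 and 41 reads in OKF6, 220, 227 and 150 in SCC25 +YBX1 and 2068, 1498 and 2226 in SCC15 +YBX1, a log2 change of 4.96 (SE 0.38, adjusted p = 1.88e-06) against OKF6 and of 3.04 (adjusted p = 8.73e-05) against SCC25. HES6 had 18, 32 and 41 reads in OKF6, 37, 41 and 32 in SCC25 +YBX1 and 561, 363 and 369 in SCC15 +YBX1, a log2 change of 3.65 (SE 0.37, adjusted p = 1.28e-05) against OKF6 and of 3.28 (adjusted p = 3.74e-05) against SCC25. The directions of HEY2, HEYL, HES2, HES4, HES6 and DLL3 were the same with equal library medians and with quantile normalization, but HEY2 in SCC25 against OKF6 was no longer called with the latter (adjusted p = 0.0632).

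**Figure D4:**
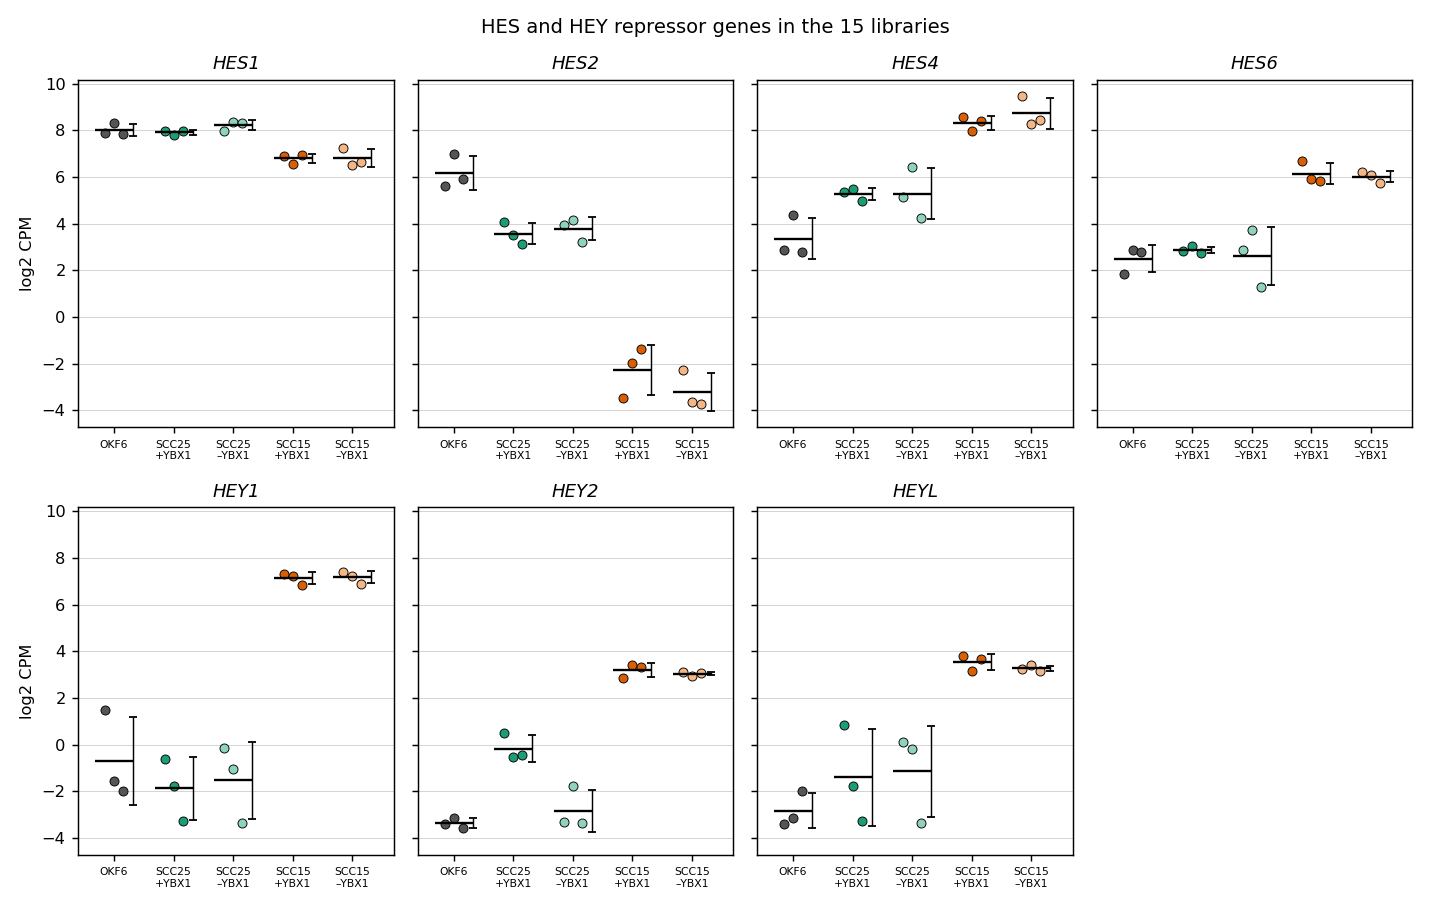
Level in log2 CPM (y axis) of HES1, HES2, HES4, HES6, HEY1, HEY2 and HEYL in the 5 groups (x axis). Each point is a library, the line is the mean and the bar ±1 SD of 3 libraries. The 3 HEY genes, HES4 and HES6 are highest in SCC15 with and without YBX1, and HES1 and HES2 are lowest there. A library with 0 reads lies near -3.

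Among other named genes, CCND1, the cell cycle gene for cyclin D1 and a target in the fixed list, had 4084, 3642 and 5088 reads in SCC25 +YBX1 and 78, 25 and 61 in SCC15 +YBX1, a log2 change of -6.64 (SE 0.38, adjusted p = 4.01e-07). MAML3, a coactivator that joins the RBPJ complex, had 18, 28 and 9 reads in OKF6 and 21, 13 and 11 in SCC15 +YBX1 but 0 in each SCC25 +YBX1 library. It was at least 17.9-fold higher in OKF6 than in SCC25 and at least 12.7-fold higher in SCC15 than in SCC25 (against 3 reads over the group). DTX3, a Deltex ubiquitin ligase, was higher in both carcinoma lines than in OKF6. It had 19, 0 and 11 reads in OKF6, 146, 105 and 105 in SCC25 +YBX1 and 214, 214 and 215 in SCC15 +YBX1. Over the pooled reads DTX3 was 18.6-fold higher in SCC15 than in OKF6 (counting interval 12.9 to 27.9) and 12.2-fold higher in SCC25 (8.37 to 18.3), and without the first OKF6 library 33.8-fold (18.8 to 68.1) and 22.1-fold (12.2 to 44.6). The fitted log2 changes, 5.27 (adjusted p = 0.00121) and 4.64 (adjusted p = 0.00601), depend on the 0.5 reads added to the OKF6 library at 0.

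The genes whose levels followed the 3 most variable members most closely were searched among 6465 genes above the median level, over all 15 libraries. For JAG1 these were TUBA4A (Pearson's r = 0.99), CAV1 (0.99) and ITGA6 (0.99), the last of which is also in the epithelial marker list. For HEY1 they were DLX2 (r = 0.98), TM2D1 (0.97) and CDKN2C (0.97). For NOTCH3 they were DCAF7 (r = 0.86), PAXBP1 (0.85) and TASOR (0.83). The range of NOTCH3 was widened by SCC25 –YBX1, with 5, 64 and 0 reads and a mean of 0.13 log2 CPM beside 1.41 in SCC25 +YBX1. Its rank and correlations thus rest in part on libraries with few reads. The correlations for JAG1 and HEY1 rest on the gap between SCC15 and the other lines, since the 15 points are 3 lines and not 15 independent samples.

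YBX1 loss was then examined within each line. None of the 9 genes was called in SCC25 or in SCC15, and none had an unadjusted p under 0.05. Over all genes, 0% were called in SCC25 and 0% in SCC15, while 3.09% and 2.32% had an unadjusted p under 0.05. In none of the 9 genes did the –YBX1 libraries stand clear of the +YBX1 libraries, against 7.31% of all genes in SCC25 and 7.04% in SCC15. Averaging the knockdown over both lines called 1 gene, YBX1 itself, which is 0.0077% of all genes, and gave 2.15% an unadjusted p under 0.05, but again none of the 9. In the test of the difference between the knockdowns 0% of all genes were called and 2.26% had an unadjusted p under 0.05, with none of the 9 among them.

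Among the targets, HES1 in SCC25 was at 7.97, 7.79 and 7.99 log2 CPM with YBX1 and at 7.99, 8.37 and 8.34 without it. It was higher without YBX1 in each of the 3 same-numbered pairs, by 0.02, 0.59 and 0.35, but the groups overlapped. The change was 0.32 (95% interval -0.10 to 0.74, adjusted p = 0.9998), and in SCC15 it was 0.00 (-0.42 to 0.42). HEY1 kept its SCC15 level, with 868, 901 and 743 reads with YBX1 and 1230, 942 and 798 without, and a change of 0.05 (95% interval -1.50 to 1.61). In SCC25 it stayed at 4, 2 and 0 reads without YBX1.

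Among the ligands, JAG1 in SCC15 was at 1.76, 1.92 and 1.75 log2 CPM without YBX1, a change of 0.18 (95% interval -0.38 to 0.75), still far below the other lines. In SCC25 it was at 8.15, 7.18 and 8.23 without YBX1, and the low value came from the second library, which stood apart. The change there was -0.04 (95% interval -0.60 to 0.53), and 0.30 without that library. JAG2 changed by -0.26 (-0.78 to 0.26) in SCC25 and by -0.04 (-0.56 to 0.48) in SCC15, and DLL1 by 0.05 in each line (-0.77 to 0.86 and -0.76 to 0.86).

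Among the receptors, NOTCH1 changed by -0.17 in SCC25 (95% interval -0.79 to 0.45) and by -0.41 in SCC15 (-1.02 to 0.21), and NOTCH2 by -0.11 (-0.52 to 0.30) and -0.27 (-0.68 to 0.14). NOTCH2 was lower without YBX1 in all 3 SCC15 pairs, with pair differences of -0.54, -0.03 and -0.25. Those of NOTCH1 in SCC15 were -1.08, -0.22 and 0.08. For both genes the widest came from the first pair, whose –YBX1 library stood apart. NOTCH3 in SCC25 could hardly be measured, with 5, 64 and 0 reads without YBX1 against 19, 16 and 7 with it. Its change of -1.27 had a 95% interval of -3.81 to 1.26, and it became 0.48 without the third –YBX1 library and -3.03 without the second. RBPJ changed by 0.36 (-0.23 to 0.95) in SCC25 and by 0.02 (-0.57 to 0.61) in SCC15. An interval that includes 0 does not show that a gene was unaffected.

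**Figure D5:**
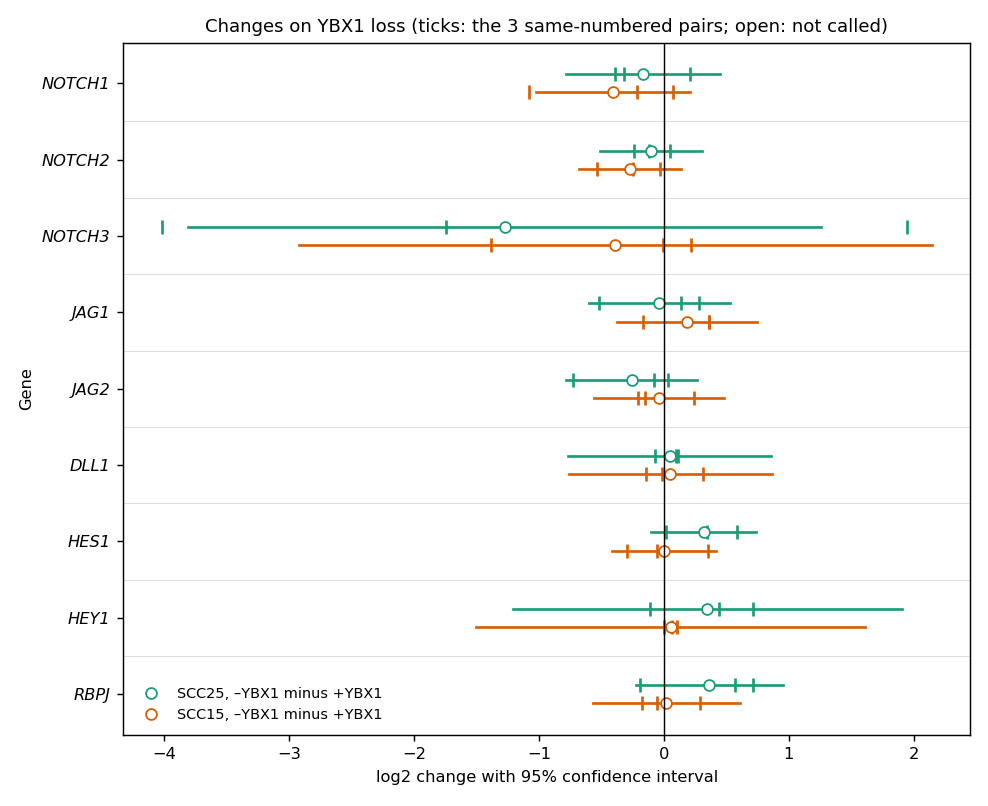
Log2 change of each Notch gene (y axis) on loss of YBX1 in SCC25 and SCC15, with the 95% confidence interval from limma (line) and the 3 same-numbered pairs (ticks), on the x axis. Every interval includes 0, and NOTCH3 in SCC25 has the widest scatter, with pairs from -4.02 to 1.94.

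On YBX1 loss 0% of all genes were called in either line by limma, and 3.09% in SCC25 and 2.32% in SCC15 had an unadjusted p under 0.05. In the wider pathway list no gene was called either, and 4 of 83 in SCC25 and 3 of 83 in SCC15 had an unadjusted p under 0.05. One of these, chosen after its values were seen, was HEY2 in SCC25, with 7, 3 and 3 reads with YBX1 and 0, 1 and 0 without. Its log2 change was -2.66 (SE 0.50, adjusted p = 0.29). In SCC15 HEY2 had 39, 62 and 65 reads with YBX1 and 62, 48 and 55 without, and the change was -0.15 (SE 0.50).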

How the data were processed

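The 2 deposited tables hold log2 CPM values, and per the labels and the study's methods the authors made them from QuantSeq 3′ libraries with Cutadapt, HISAT2 (hg38), featureCounts and limma in Galaxy. These 3′ single-end reads tag the end of a transcript. The values were the log2 of (reads + 0.5) scaled by 1 factor per library. That factor was not set by the total of the listed reads alone. A read was worth 0.188 CPM in the first SCC25 +YBX1 library, with 6090488 reads. It was worth 0.138 CPM in the first SCC15 –YBX1 library, with 5887467 reads. Taking the lowest value of a library as 0 reads, 100% of the values came out whole (tolerance 0.01), and these reads are the counts quoted. The 6 +YBX1 libraries of SCC15 and SCC25 are in both tables. No column was left out.

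Differences were fitted with limma 3.58.1 in R 4.3.3 (lmFit, eBayes with a variance trend) on the log2 values. The cell line table (OKF6, SCC15 and SCC25 +YBX1) and the YBX1 table (4 groups) were fitted separately over all 12995 genes. The threshold was a Benjamini-Hochberg adjusted p of 0.05. The script was tested on simulated data. Counting intervals are exact binomial intervals on pooled reads, at the 95% level. The members and lists were chosen with earlier results of these data known. Named pathway genes were up to 3 higher and up to 3 lower per line comparison, among those called without overlap. Genes most like a member were the 3 with the highest Pearson correlation, for the 3 members with the widest range of group means. Pieces of 75 bases from the last 500 bases of each member's transcript (GENCODE 44, hg38) mapped with minimap2 2.31 nowhere else as well as to their own gene, for all 9. Libraries of one line that carried the same number with and without YBX1 shared deviations (correlations of 0.135 to 0.47 in SCC25 and 0.117 to 0.498 in SCC15). Unlike numbers averaged -0.174 in SCC25 and -0.145 in SCC15. Some were as high, such as 0.345 for SCC15 +YBX1 library 2 with –YBX1 library 3. Pair differences are shown within lines, but the main fits had no block, so their p-values and intervals ignore any pairing. Between lines same-numbered libraries were not taken as pairs (-0.198 to 0.264). The alternatives were 12 other settings fixed at the start, among them leaving out each library, and a block for each pair and the counts over the pathway list, added after seeing the data.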

Additional observations from a re-analysis of the deposited data

How the results depend on the processing

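Of 780 values of the members under alternatives, 708 kept their direction and their side of the threshold, 37 lost the call, 6 gained one and 29 changed sign, all of the last in differences that were not called. For SCC25 against OKF6, 5 genes were called, but 2 with only the groups compared, 2 with no variance trend, 3 with voom precision weights, 0 at a threshold of 0.01 (where limma's unadjusted p was under 0.05 for 5) and 1 to 4 when each library was left out in turn. JAG2 was called there in all but the 0.01 threshold. With the replicate number as a block NOTCH3 in this comparison was lost (adjusted p = 0.0756), and neither block, by number or by pair within a line, changed another call of a member. Equal library medians moved the median of all genes by 0.16 in SCC15 against OKF6 and by 0.15 in SCC15 against SCC25, and quantile normalization by -0.18 in SCC25 against OKF6 and by 0.18 in SCC15 against SCC25. The split of all genes in SCC25 against OKF6 was 2450 higher and 1473 lower, and 2006 and 1837 after quantile normalization, where HEY1 was called at -3.06.

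The sign changes were these. Leaving out libraries, JAG2 in SCC15 against OKF6 ranged from -0.62 to 0.049 and HES1 in SCC25 against OKF6 from -0.19 to 0.057. On YBX1 loss in SCC25, JAG1 was 0.0074 after quantile normalization. On YBX1 loss in SCC15, equal library medians gave HES1 -0.026 and RBPJ -0.00651, and quantile normalization gave JAG2 0.028, DLL1 -0.0011 and RBPJ -0.022. Leaving out each library in turn, the change on YBX1 loss in SCC25 ran from -0.22 to 0.30 for JAG1, -0.11 to 0.23 for DLL1, -0.35 to 1.27 for HEY1, -0.27 to 0.047 for NOTCH2, -3.03 to 0.48 for NOTCH3, and -0.47 to 0.062 for JAG2. Leaving out each library in turn, the change on YBX1 loss in SCC15 ran from -0.70 to 0.025 for NOTCH3, -0.30 to 0.43 for DLL1, -0.22 to 0.14 for HES1, -0.0605 to 0.11 for RBPJ, -0.21 to 0.10 for JAG2, and -0.092 to 0.20 for HEY1. The cause of these shifts was not tested. HEY1 had at most 4 reads in any SCC25 library, and NOTCH3 had 5, 64 and 0 in SCC25 –YBX1.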
